A study of Mus musculus with 48 samples.

Results

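Thyroid hormone acts on a cell after it has been carried in, converted to its active form and bound by nuclear receptors. The genes described here, Dio2, Slco1c1, Thra, Thrb, Hr and Klf9, were chosen for their roles in these steps and in the response to them. They are 6 of the 18194 genes for which the arrays hold a probe set with 1 gene symbol. Where a gene had several probe sets, the one with the highest mean was read, and the rest, out of 17 for the 6 genes, served as a check. Type 2 deiodinase, the product of Dio2, converts thyroxine into triiodothyronine, which binds the receptors more tightly, and Slco1c1 encodes OATP1C1, which carries thyroxine across membranes. Thra and Thrb encode the nuclear receptors, Hr a corepressor that binds them and whose own gene responds to the hormone in brain, and Klf9 a zinc finger factor induced by the hormone in neural cells. The pars tuberalis, the rim of the pituitary along its stalk, senses the length of the night through melatonin and makes thyrotropin under long days. Thyrotropin then acts on its receptor in ependymal cells and tanycytes of the neighbouring hypothalamus, where Dio2 is a known target.

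The arrays measured pars tuberalis RNA of male CBA/N mice, punched with a needle from frozen brain slices, each array from a pool of 25 mice. All mice were first kept on short days for 3 weeks. Long-day mice then had 16 h of light for 2 weeks and were 8 weeks old. Advance and delay mice were 6 weeks old and in their first day with 16 h of light: in advance the light came on early, at ZT16 of the short-day cycle, and in delay it stayed on past ZT8, until ZT16. Short-day mice had 8 h of light and were 8 weeks old. Each of the 4 conditions was sampled at 6 times 4 h apart, with 2 arrays a time. ZT counts hours from lights-on, in both first-day conditions from that of the short-day cycle, so advance sampling ran in the order ZT16, ZT20, ZT0, ZT4, ZT8 and ZT12. Values are log2 expression levels as the authors deposited them. The labels name the 2 arrays of a time as repeats, and p-values measure the spread between such repeats, which may be partly technical. A gene passed where its adjusted p from limma lay below 0.05, and ± after a difference is its standard error.

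Array medians lay between 6.98 and 7.03. The genes Tshb, Cga and Eya3, read here as markers of the pars tuberalis, were above them on every array. They lay at 9.72 or more, 13.21 or more and 8.95 or more. Some markers of neighbouring brain were high on every array too, among them Gpr50 of tanycytes (12.43 or more), Gja1 of astrocytes (13.05 or more), Gad1 of neurons (12.29 or more) and Mbp of oligodendrocytes (12.81 or more). Others were dim. Mog of oligodendrocytes lay below the first quartile of genes on 36 arrays, and Foxj1 of ependymal cells on 20. Hormone genes of the anterior pituitary were measured as well and varied between arrays. Prl ranged from 5.36 to 12.24, Gh from 6.16 to 11.32, Lhb from 6.76 to 9.01 and Fshb from 7.20 to 10.41. In such bulk tissue, fewer cells of a type and less RNA per cell cannot be told apart. By 12 clock genes, 7 of 12 long-day, 12 of 12 advance, 9 of 12 delay and 12 of 12 short-day arrays were closest to their own labelled time. All 4 long-day arrays labelled ZT16 or ZT20 were closest to the other of these labels, and the long-day averages, daily variation and courses are given with and without them. An array's own time was read from its partner array alone, and every other time from the mean of 2 arrays. The partners lay 1.45 apart at ZT16 and 1.04 at ZT20, in SD of each gene, against 0.74 or less at the other long-day times. Partners so unlike can both fall closest to the other label, so which of the labels are wrong, if any, was not settled. Values at these 2 long-day times alone rest on partners that differed in clock genes.

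Dio2 and Slco1c1 carry most of what follows, so the 250 bases ahead of their starts are shown from RefSeq on GRCm38.p6, in the direction of each gene. Dio2 lies at chr12:90724552-90739038 on the minus strand, and the stretch ahead of it is chr12:90739039-90739288. Slco1c1 lies at chr6:141524354-141570177 on the plus strand, with chr6:141524104-141524353 ahead of it. Capitals in the Dio2 line mark the cAMP response element TGACGTCA, whose first base is 95 bases ahead of the start. Of 32851 promoters, each read from 250 bases before to 50 after the start, 1.79% hold these letters.
Dio2: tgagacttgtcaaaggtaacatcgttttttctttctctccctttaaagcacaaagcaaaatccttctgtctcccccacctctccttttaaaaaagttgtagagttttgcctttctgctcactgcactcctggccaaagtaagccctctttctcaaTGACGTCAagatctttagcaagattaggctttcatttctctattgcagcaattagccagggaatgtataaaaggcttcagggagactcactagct
Slco1c1: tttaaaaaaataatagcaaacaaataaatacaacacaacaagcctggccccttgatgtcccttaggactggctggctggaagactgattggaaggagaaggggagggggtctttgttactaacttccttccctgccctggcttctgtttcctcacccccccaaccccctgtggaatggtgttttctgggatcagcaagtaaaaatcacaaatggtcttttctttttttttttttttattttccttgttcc
The Slco1c1 stretch holds none of the letters searched for. Its E-box CACGTG, in 7.15% of promoters, begins 20 bases after the start and is in capitals in the window chr6:141524363-141524388 on the plus strand.
Slco1c1 E-box: aaagctttatCACGTGtggccttaaa
The search covered both strands of these windows. Its letters were TGACGTCA, the shorter TGACG that lies within it (in 20.8% of promoters), CACGTG, the D-boxes TTATGCAA (0.743%) and TTATGTAA (0.938%), the receptor site AGGTCA (16.3%) and a direct repeat of AGGTCA spaced by NNNN (0.015%). Promoters of 4 of the 6 genes were in the table: Dio2, Slco1c1, Klf9 (1 TGACG) and Thrb, whose 2 starts held TGACG with AGGTCA at 1 and CACGTG at the other. No D-box and no direct repeat lay in these windows. Each match is a run of letters, not a shown binding site. The other 4 genes lie at chr11:98740776-98769006 (Thra), chr14:17659225-18040097 (Thrb), chr14:70554056-70573548 (Hr) and chr19:23141226-23168129 (Klf9).

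After 2 weeks of long days Dio2, Slco1c1 and Hr were higher than under short days, Thra was lower, Klf9 was slightly higher, and Thrb did not pass. That made 5 of 6 genes past the threshold, against 46.7% of all genes (17.6% higher and 29.1% lower). Dio2 lay at 13.43 to 13.69 (median 13.55) on the 12 long-day arrays, against 11.88 to 13.28 (median 12.39) on the 12 short-day arrays. Every long-day array was above every short-day array, and the difference was 1.02 ± 0.06, or 2.02-fold (adjusted p = 1.38e-15). The transporter Slco1c1 lay at 13.04 to 13.53 (median 13.38) under long days, against 11.42 to 12.42 (median 11.79) under short days, again without overlap. Its difference of 1.50 ± 0.07 was 2.83-fold (adjusted p = 3.34e-17). Of 18194 genes, 9 rose by more than Slco1c1 and 30 by more than Dio2.

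Of the receptors, Thra lay at 11.45 to 11.82 (median 11.56) under long days, against 11.77 to 12.25 (median 11.99) under short days. These ranges overlapped a little over the day as a whole, but at none of the 6 times. Thra fell by 0.41 on the log2 scale (SE 0.04, adjusted p = 1.19e-10), to 0.755 of the short-day level. Thrb was dim, below the array median on all 48 arrays: 5.66 to 6.17 (median 5.90) under long days and 5.73 to 6.05 (median 5.92) under short days. Its difference was -0.02 ± 0.05 (adjusted p = 0.833), and at so low a signal a change could be missed. Of the responding genes, Hr lay at 8.20 to 8.64 (median 8.36) under long days, against 7.36 to 7.90 (median 7.73) under short days, without overlap. It rose by 0.67 ± 0.05, or 1.60-fold (adjusted p = 1.34e-12). Klf9 lay at 11.70 to 12.31 (median 11.99) under long days and 11.57 to 12.03 (median 11.78) under short days, and these ranges overlapped. Its rise of 0.20 ± 0.05 passed (adjusted p = 0.00196), but was 0.02 (adjusted p = 0.627) when all its probe sets were averaged. Without the long-day arrays labelled ZT16 and ZT20, a setting chosen after seeing the data, the differences were 0.87 for Dio2, 1.37 for Slco1c1, 0.67 for Hr, -0.40 for Thra and 0.15 for Klf9. All 5 then passed, with Klf9 at an adjusted p of 0.0171, and Thrb was at 0.03.

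**Figure D1:**
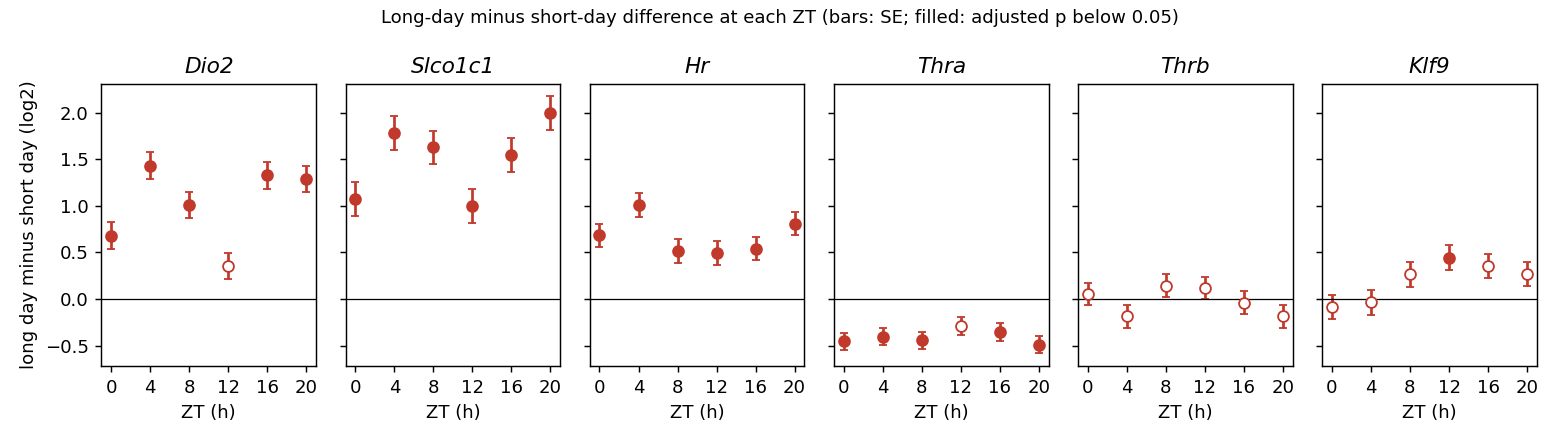
Long-day minus short-day difference in log2 level at each ZT (h) for the 6 genes, 2 arrays a group, with SE as bars and filled points where the adjusted p was below 0.05. Slco1c1 and Hr pass at all 6 times, Dio2 at 5, Thra at 5 on the lower side, Klf9 at 1 and Thrb at 0.

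The size of the Dio2 difference depended on the time of day. It was 1.43 ± 0.14 at ZT4, with 13.56 and 13.46 under long days against 12.28 and 11.88 under short days. It was smallest, 0.36 ± 0.14, at ZT12, with 13.43 and 13.55 under long days against 13.28 and 12.97 under short days (adjusted p = 0.143). Dio2 passed at the 5 other times. Slco1c1 passed at all 6, with differences of 1.00 ± 0.18 at ZT12 to 1.99 ± 0.18 at ZT20, or to 1.78 ± 0.18 at ZT4 leaving out ZT16 and ZT20. Hr passed at all 6 as well, with 0.49 ± 0.13 at ZT12 to 1.01 ± 0.13 at ZT4. Thra was lower at every time and passed at all but ZT12 (-0.29 ± 0.09, adjusted p = 0.0598). Klf9 passed at ZT12 alone (0.45 ± 0.13, adjusted p = 0.0379), a call lost in 4 of the other settings, and Thrb at none. The share of all genes past the threshold was 20%, 22.2%, 16.2%, 5.45%, 16% and 19.6% from ZT0 to ZT20, so ZT12 had the fewest differences among all genes too.

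At single times 1 array could decide a call. Slco1c1 at ZT12 was lost without long-day replicate 2 (adjusted p = 0.0515), and Hr and Klf9 at ZT12 without any 1 of the 4 arrays of that time (adjusted p up to 0.170 and 0.268). Thra was lost at ZT4 without short-day replicate 1 or long-day replicate 2, at ZT8 without short-day replicate 1, and at ZT16 without replicate 2 of either condition (adjusted p up to 0.147). By clock hour, with long-day lights-on 4 h earlier, Dio2, Slco1c1 and Hr passed at all 6 times, against 13.4%, 19.7%, 24.5%, 12.7%, 3.16% and 14.9% of all genes for long-day ZT0 to ZT20. Dio2 was then least different in the long-day ZT16 samples (0.52 ± 0.14, adjusted p = 0.0348). That call was lost in 5 of the other settings, and without either of these arrays or short-day ZT12 replicate 2 (adjusted p up to 0.256). Klf9 by clock hour passed at long-day ZT20 alone (0.43 ± 0.13, adjusted p = 0.0226), where its 2 arrays were 11.70 and 12.31. The Hr call was lost at long-day ZT0 without short-day ZT20 replicate 2 (adjusted p = 0.0743), and at long-day ZT12 without any 1 of its arrays or those of short-day ZT8 (adjusted p up to 0.158).

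**Figure D2:**
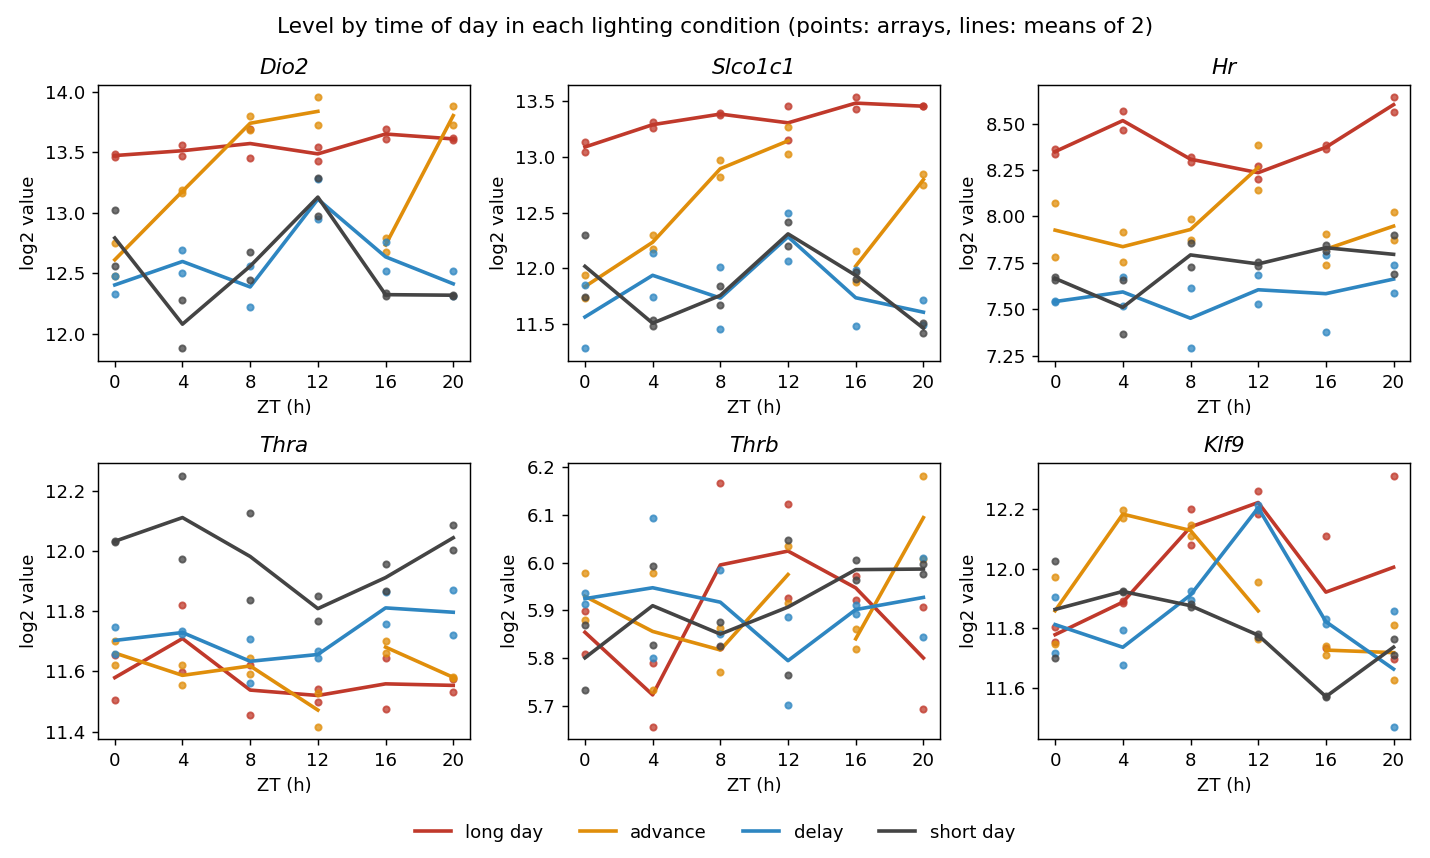
Log2 level of each gene by ZT (h), with points for the arrays and lines for the means of 2, in long day (red), advance (orange), delay (blue) and short day (grey); the advance line is broken where its sampling began, at ZT16. Dio2 and Slco1c1 stay high through the long day, peak at ZT12 under short days and in delay, and in advance are high at ZT20 and again at ZT8 and ZT12, while the 4 conditions overlap for Thrb.

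Under short days Dio2 and Slco1c1 varied over the day, and under long days they stood high with no variation past the threshold. Dio2 under short days was 12.56 and 13.02 (ZT0), 12.28 and 11.88 (ZT4), 12.45 and 12.67 (ZT8), 13.28 and 12.97 (ZT12), 12.31 and 12.34 (ZT16) and 12.32 and 12.31 (ZT20). Its highest mean, at ZT12 and so 4 h after lights-off, was 2.07-fold the lowest, at ZT4 (F test, adjusted p = 5.12e-05). Slco1c1 had its short-day peak at ZT12 as well, with 12.42 and 12.20, and its low at ZT20, with 11.51 and 11.42, a range of 0.85 (adjusted p = 0.0101). That call was lost without short-day ZT12 replicate 1 (adjusted p = 0.0565). These 2 genes alone of the 6 passed, against 8.91% of all genes. Under long days none of the 6 passed in limma, against 296 genes, or 1.63% of all, with 1705 at an unadjusted p below 0.05. The range over the long day was 0.18 for Dio2, 0.39 for Slco1c1, 0.37 for Hr, 0.19 for Thra, 0.30 for Thrb and 0.44 for Klf9. Dio2 and Slco1c1 had their long-day maximum at ZT16, and without the arrays labelled ZT16 and ZT20 the range was 0.099 for Dio2, 0.30 for Slco1c1 and 0.28 for Hr.

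Whether the courses themselves differed between long and short days was tested with times matched by ZT and by clock hour. By ZT, Dio2 passed (adjusted p = 0.00193) and no other of the 6 did, against 4.3% of all genes. Slco1c1 lay at the threshold (adjusted p = 0.0505). By clock hour Dio2 passed narrowly (adjusted p = 0.0489, against 0.467% of all genes), and leaving out single arrays lost that call in 32 of 48 cases (adjusted p up to 0.177). Without the 4 long-day arrays labelled ZT16 and ZT20 the Dio2 course still differed by ZT (adjusted p = 0.00641) but did not pass by clock hour (adjusted p = 0.249). Klf9 had discordant long-day arrays at these labels, 12.11 and 11.73 at ZT16 and 11.70 and 12.31 at ZT20. Without them its long-day variation passed (range 0.44, adjusted p = 0.0239), with 11.75 and 11.80 (ZT0), 11.89 and 11.88 (ZT4), 12.20 and 12.08 (ZT8) and 12.18 and 12.26 (ZT12).

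On the first long day the added light came either late in the night or in the evening. In advance, 4 h of late-night light were followed by higher Dio2 and Slco1c1, and the other 4 genes did not pass. Dio2 was 13.72 and 13.88 at ZT20 and 12.67 and 12.79 at ZT16 in advance, against 12.32 and 12.31 at ZT20 and 12.31 and 12.34 at ZT16 under short days. The 4 h change in advance exceeded that under short days by 1.07 ± 0.20 (adjusted p = 0.00563). Slco1c1 was 12.75 and 12.84 at ZT20 and 11.88 and 12.16 at ZT16 in advance, against 11.51 and 11.42 at ZT20 and 11.91 and 11.96 at ZT16 under short days. It was higher at ZT20 than at ZT16 in advance and lower under short days, a difference of 1.25 ± 0.26 (adjusted p = 0.0153). These 2 of 6 genes stood among 40 genes, 0.22% of all, that passed in this comparison. Hr changed by 0.16 ± 0.18, Thra by -0.23 ± 0.13, Thrb by 0.25 ± 0.17 and Klf9 by -0.17 ± 0.19 relative to short days, with adjusted p from 0.847 to 0.909. The Dio2 call was lost without advance ZT16 replicate 1 or advance ZT20 replicate 2 (adjusted p up to 0.0764). The Slco1c1 call was lost without either of these, without short-day ZT16 replicate 2 or without either short-day ZT20 array (adjusted p up to 0.193).

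The advance course was not a steady climb. After the high at ZT20, Dio2 was 12.48 and 12.75 at ZT0, 8 h after lights-on, then 13.16 and 13.19 at ZT4, 13.68 and 13.80 at ZT8 and 13.72 and 13.95 at ZT12. Slco1c1 had the same order, with 11.94 and 11.74 (ZT0), 12.17 and 12.30 (ZT4), 12.82 and 12.97 (ZT8) and 13.02 and 13.26 (ZT12). Variation over the advance day passed for Dio2 (range 1.23, adjusted p = 1.09e-08) and Slco1c1 (range 1.31, adjusted p = 6.84e-06) and for no other of the 6, against 2.58% of all genes. Measured from ZT16 and against short days, Dio2 differed by -0.59 ± 0.20, 0.69 ± 0.20, 0.77 ± 0.20 and 0.30 ± 0.20 at ZT0, ZT4, ZT8 and ZT12. The same differences for Slco1c1 were -0.27 ± 0.26, 0.64 ± 0.26, 1.05 ± 0.26 and 0.75 ± 0.26. None of the 6 genes passed in limma at these later times, where 0%, 0.0055%, 0.011% and 0% of all genes did, with 1695, 2059, 810 and 1218 genes at an unadjusted p below 0.05.

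**Figure D3:**
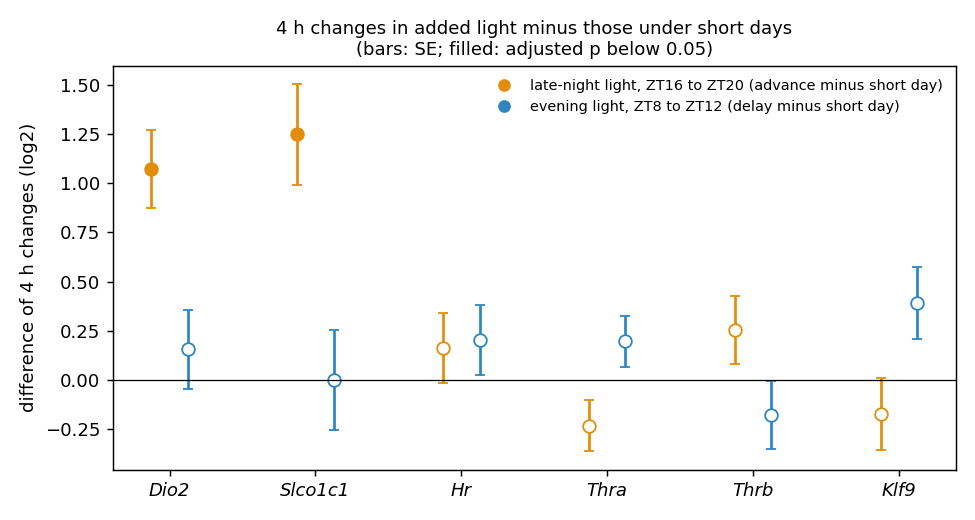
Change over 4 h of added light minus the change under short days over the same hours, in log2 units with SE, for late-night light (orange, ZT16 to ZT20) and evening light (blue, ZT8 to ZT12), 2 arrays a group and filled points where the adjusted p was below 0.05. Dio2 at 1.07 and Slco1c1 at 1.25 stand above 0 after late-night light, and no gene passes after evening light.

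In delay, 4 h of evening light were followed by no change past the threshold in any of the 6 genes, against 0.0385% of all genes. Dio2 was 13.27 and 12.95 at ZT12 and 12.22 and 12.56 at ZT8 in delay, against 13.28 and 12.97 at ZT12 and 12.45 and 12.67 at ZT8 under short days. It was higher at ZT12 than at ZT8 in both, and the difference of the changes was 0.15 ± 0.20 (adjusted p = 0.863). Slco1c1 was 12.50 and 12.07 at ZT12 and 11.45 and 12.01 at ZT8 in delay, against 12.42 and 12.20 at ZT12 and 11.67 and 11.85 at ZT8 under short days, a difference of changes of -0.00 ± 0.26 (adjusted p = 0.999). The sign of both changed in other settings. After 8 h of evening light the differences were 0.48 ± 0.20 for Dio2 and -0.18 ± 0.26 for Slco1c1, and none of the 6 passed, against 1.1% of all genes. The late-night response minus the evening response was 0.92 ± 0.28 for Dio2 (adjusted p = 0.300) and 1.25 ± 0.36 for Slco1c1 (adjusted p = 0.277), so the 2 responses were not shown to differ. None of the 6 passed that comparison, against 0.159% of all genes, and the 29 genes that did were accompanied by 1893 at an unadjusted p below 0.05.

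Klf9 had an evening difference past the threshold. In delay it was 12.20 and 12.21 at ZT12 and 11.81 and 11.83 at ZT16, against 11.78 and 11.77 at ZT12 and 11.57 and 11.57 at ZT16 under short days. Its mean over these 2 times, less that over ZT0, ZT4 and ZT8, was higher in delay than under short days by 0.41 ± 0.12 (adjusted p = 0.0405), and it alone of the 6 passed, against 6.11% of all genes. The call was lost in 5 of the other settings. It was also lost without any 1 of 13 arrays: delay ZT0, ZT4 or ZT8 replicate 2, any delay array of ZT12 or ZT16, short-day ZT0 replicate 2, replicate 1 of short-day ZT4, ZT8 or ZT16, and either short-day ZT12 array (adjusted p up to 0.0902). Thra had 0.23 ± 0.08 in the same comparison (adjusted p = 0.0852). Over the delay day as a whole Dio2 varied on the probe set used (range 0.72, adjusted p = 0.00973), with its peak at ZT12 as under short days. No other of the 6 passed, against 1.52% of all genes. The other Dio2 probe sets had their delay peak at ZT12 (1426081_a_at, mean 9.83) and at ZT4 (1418938_at, mean 7.61). The Dio2 call was lost without delay ZT12 replicate 1 (adjusted p = 0.364) and with averaged probe sets (adjusted p = 0.115).

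At ZT0, ZT4 and ZT8 advance mice had already had the added light and delay mice had not, and both were 6 weeks old. No time ahead of the added light was sampled in both, so light cannot be told apart from other differences between these mice. Dio2, Slco1c1, Hr and Klf9 were higher in advance, 4 of the 6 genes, against 5.54% of all genes called higher and 8.76% called in either direction. Dio2 differed by 0.71 ± 0.08 (adjusted p = 8.61e-07), with the widest gap at ZT8, where advance had 13.68 and 13.80 and delay 12.22 and 12.56. Slco1c1 differed by 0.58 ± 0.10 (adjusted p = 0.000529), with 12.82 and 12.97 in advance at ZT8 against 11.45 and 12.01 in delay. Hr differed by 0.37 ± 0.07 (adjusted p = 0.0012), and its advance arrays at these times lay between 7.76 and 8.07, against 7.29 to 7.67 in delay, without overlap. Klf9 differed by 0.24 ± 0.08 (adjusted p = 0.0443), mostly at ZT4, where advance had 12.20 and 12.17 and delay 11.80 and 11.68. The Klf9 call was lost without any 1 of 11 arrays, namely advance ZT0 replicate 2, any of advance ZT4 or ZT8, delay ZT0 replicate 1, delay ZT4 replicate 2, either of delay ZT8 and either of long-day ZT4 (adjusted p up to 0.149). Thra at -0.07 ± 0.05 and Thrb at -0.06 ± 0.07 did not pass.

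First-day mice were younger than short-day mice, and age cannot be told apart here from any other difference between these mice. In samples taken ahead of the added light, at ZT16 in advance and at ZT0, ZT4 and ZT8 in delay, Thra was lower than in short-day samples of the same ZT, by a difference of -0.32 ± 0.05 (adjusted p = 7.31e-07). It alone of the 6 passed, against 48.8% of all genes. Markers of some neighbouring brain cells were mostly lower in the same comparison. Called lower were 6 of 9 astrocyte (median -0.38), 5 of 11 neuron (-0.27), 3 of 5 oligodendrocyte (-0.27) and 5 of 7 ependymal markers (-0.22). Against these, 1, 0, 1 and 0 were called higher. Of all 18194 genes, 4911 were called lower and 3961 higher in this comparison. Tanycyte markers went both ways, with 3 of 9 higher and 3 lower (0.05). So did endothelial markers, with 3 of 10 higher and 2 lower (0.07). Of 6 microglia markers 2 were lower and 0 higher (-0.09). The part of these cells in the Thra difference was not tested. Over the whole day Thra lay at 11.42 to 11.70 (median 11.61) in advance and 11.56 to 11.87 (median 11.72) in delay, against 11.77 to 12.25 (median 11.99) under short days. Every advance array was below every short-day array, and the delay and short-day ranges overlapped. The other 5 genes did not pass on the probe sets used, with Dio2 at 0.09 ± 0.07 (adjusted p = 0.290) and Hr at -0.10 ± 0.06 (adjusted p = 0.200). The Dio2 value was not shared by its other probe sets, which gave 0.57 ± 0.09 and -0.32 ± 0.11. The other Thra probe sets gave -0.19 ± 0.07 and -0.14 ± 0.06 (adjusted p = 0.0213 and 0.0609). A bright second Klf9 probe set, 1456341_a_at, was lower in delay over the whole day. It lay at 10.47 to 11.42 there, against 11.41 to 12.15 under short days and 11.19 to 11.90 in advance. The Klf9 probe set used lay at 11.47 to 12.21 in delay and 11.57 to 12.03 under short days.

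**Figure D4:**
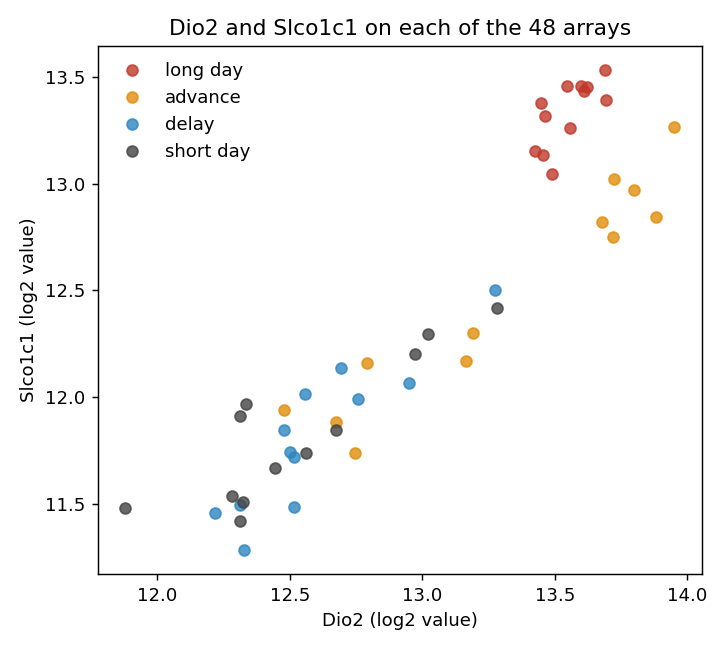
Log2 level of Slco1c1 against Dio2 on each of the 48 arrays, coloured by condition as long day (red), advance (orange), delay (blue) and short day (grey). Long-day arrays form a group at the top right with a Slco1c1 median of 13.38, and advance arrays run along a line that starts among the delay and short-day arrays and ends at the highest Dio2 values.

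Dio2 and Slco1c1 moved together over the 24 group means, with a Pearson r of 0.93, and with 0.93 after each condition was centred on its own mean. Within the 6 times of a condition r was 0.89 under long days (0.79 over the 4 times without ZT16 and ZT20), 0.97 in advance, 0.93 in delay and 0.87 under short days. Both genes are read from the same RNA pools, and these correlations are descriptions. By the same measure the genes closest to Dio2 were Ppp1r3c (0.93), Slco1c1 (0.93) and Gnptab (0.92), and those closest to Slco1c1 were Hccs (0.94), Dio2 (0.93) and B4galt6 (0.93). After centring, each of the pair ranked 1 for the other among all genes. Hr was closest to Ptar1 (0.93), Myo9a (0.93) and Hccs (0.92), and Thra to Cst3 (0.97), Snph (0.97) and Fcho1 (0.97). Klf9 was closest to Dgat2 (0.89), Nr1d2 (0.84), a repressor in the circadian clock, and St8sia4 (0.82), and the dim Thrb reached 0.60 with Nlrp4c and Zbtb38 and 0.59 with Pfn3. On the probe sets used, the pair differed in how its first-day levels stood to the long-day ones. Mean Dio2 in advance was above the long-day mean at 3 of 6 times, with 13.74 in advance against 13.57 under long days at ZT8 and 13.84 against 13.49 at ZT12, and at ZT20. It was below at the other 3, with 12.73 in advance against 13.65 under long days at ZT16, 12.61 against 13.47 at ZT0 and 13.18 against 13.51 at ZT4. The order at ZT20 was not shared by another Dio2 probe set, 1418938_at. Its highest advance mean was 9.23, at ZT12, below its long-day mean of 9.49 at ZT20. Mean Slco1c1 in advance was below the long-day mean at all 6 times, closest at ZT12 with 13.14 against 13.31. These comparisons were not tested, and the mice differ in age.

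**Figure D5:**
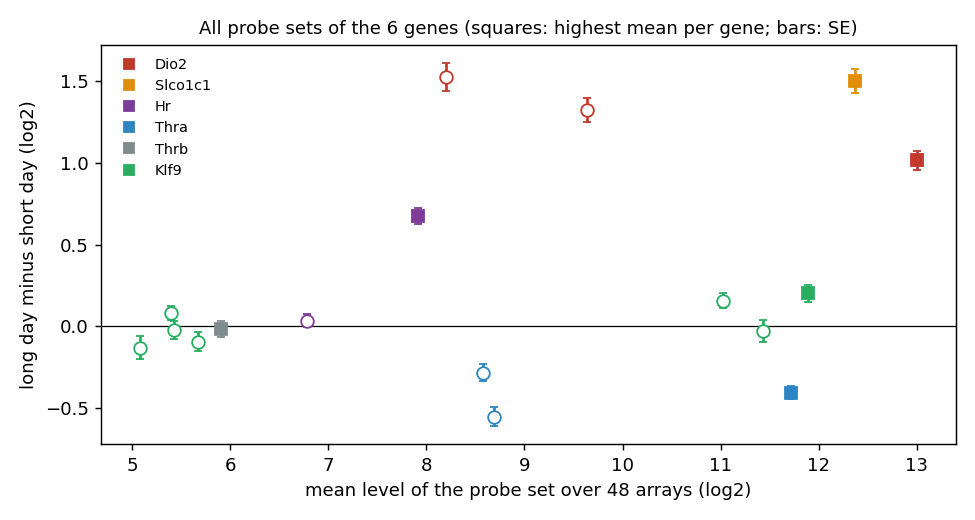
Long-day minus short-day difference in log2 level, with SE, of each of the 17 probe sets of the 6 genes, against its mean log2 level over 48 arrays. All 3 Dio2 probe sets lie above 0 and all 3 Thra probe sets below, whereas the other probe set of Hr and most others of Klf9 lie near 0.

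The other probe sets gave the same direction for Dio2 and Thra and not for every gene. Those of Dio2 correlated with the one used, 1418937_at, at 0.95 and 0.89 over 48 arrays and had larger long-day differences, 1.32 ± 0.07 and 1.53 ± 0.09. Their late-night responses were 1.35 ± 0.25 and 1.74 ± 0.30 (adjusted p = 0.00589 and 0.00162). Those of Thra, beside 1454675_at, had -0.55 ± 0.06 and -0.28 ± 0.05 under long days, both past the threshold. The second Hr probe set, beside 1435950_at, was below the array median on 47 of 48 arrays and had 0.04 ± 0.04 (adjusted p = 0.532). Of the 6 other Klf9 probe sets, beside 1428289_at, 4 were below the array median on all 48 arrays. Of the brighter ones, 1 had 0.16 ± 0.04 under long days (adjusted p = 0.00399) and the other -0.03 ± 0.07 (adjusted p = 0.794). Slco1c1 (1423343_at) and Thrb (1422202_at) have 1 probe set each.

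The arrays also measured 29 other genes of the pathway. Between long and short days 15 of the 29 passed, 5 higher and 10 lower, with a median difference of -0.06 against -0.03 over all genes. Of all genes 46.7% passed, a share near that of the list. Upstream of the hormone 3 of 4 rose: Tshb, the beta subunit of thyrotropin (3.56 ± 0.16), Eya3, its coactivator (0.90 ± 0.07), and Trhr, a receptor of thyrotropin-releasing hormone (0.81 ± 0.05). The receptor of thyrotropin, Tshr, had -0.00 over the whole day (adjusted p = 0.948), but its course by ZT differed (F test, adjusted p = 0.00248). Its means were 8.84 under long days against 8.59 under short days at ZT12. At ZT16, where the long-day arrays differed in clock genes, they were 8.62 against 9.20. Among 9 receptor partners and cofactors 5 fell and 1 rose, and the falls were led by Rxrg (-0.82 ± 0.05), Nr2f1 (-0.50 ± 0.07) and Rxrb (-0.44 ± 0.06). Rxrg and Rxrb encode retinoid X receptors, which pair with thyroid hormone receptors. Of 7 transporters 2 fell and none rose, and of 4 genes of deiodination and binding 1 fell and none rose. Genes known to respond to the hormone went both ways, with Aldh1a1, which makes retinoic acid, higher (1.24 ± 0.07) and Thrsp, a lipogenic gene of liver, lower (-0.68 ± 0.04).

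Many of these genes also differed between first-day samples ahead of the added light and short days, a comparison that shares the short-day arrays: 20 of 29 passed there, 6 higher and 14 lower, against 48.8% of all genes. Among them were Tshb (1.50 ± 0.19), Aldh1a1 (0.55 ± 0.08), Rxrg (-0.66 ± 0.06) and Thrsp (-0.66 ± 0.05). After 4 h of late-night light 3 of 29 passed, against 0.22% of all genes: Eya3 (1.62 ± 0.26) and Trhr (0.95 ± 0.19) were higher and Thrsp lower (-0.82 ± 0.14). Eya3, like Dio2, was high at ZT20 and ZT12 of the advance day, with means of 9.08, 10.82, 9.13, 9.07, 9.24 and 10.34 from ZT16 to ZT12. The 2 genes parted at ZT8, where Dio2 was already high, with a mean of 13.74, and Eya3 was not. After 4 h of evening light 0 of 29 passed in limma, which called 7 genes in all (0.0385%) and found 1380 at an unadjusted p below 0.05. Between advance and delay at ZT0, ZT4 and ZT8, 8 of 29 passed, 3 higher and 5 lower, against 8.76% of all genes. They included the subunits of an amino acid transporter that also carries thyroid hormone, Slc7a5 (0.41 ± 0.09) and Slc3a2 (0.29 ± 0.06), and on the lower side Ttr, which binds thyroxine (-1.26 ± 0.41), Thrsp (-0.44 ± 0.06) and Aldh1a1 (-0.40 ± 0.09). Ttr varied widely between arrays, over the whole day from 8.81 to 11.13 in advance, 10.15 to 12.38 in delay and 10.38 to 14.05 under short days.

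Dio2 and Slco1c1 are known from tanycytes and astrocytes, and Slco1c1 also from brain endothelium, so markers of these cells are given beside them. Between long and short days 2 of 9 tanycyte markers were higher and 3 lower (median -0.05), 3 of 9 astrocyte markers higher and 4 lower (median -0.02), and 1 of 10 endothelial markers higher and 4 lower (median -0.09). Of the 7 ependymal markers 4 were lower (median -0.32), and of the 5 pars tuberalis markers 4 were higher (median 0.90). Of all genes 17.6% were higher and 29.1% lower (median -0.03). The pars tuberalis list holds Tshb and Eya3, upstream genes that rose, so its median is no measure of the amount of this tissue. The summed level of the tanycyte markers ranged, in log2, from 15.06 to 15.32 under long days, 15.05 to 15.39 in advance, 14.95 to 15.39 in delay and 14.85 to 15.23 under short days. The astrocyte sum ranged from 14.31 to 14.63 under long days, 14.25 to 14.50 in advance, 14.15 to 14.41 in delay and 14.29 to 14.58 under short days. The endothelial sum ranged from 12.31 to 12.59 under long days, 12.50 to 12.76 in advance, 12.38 to 12.72 in delay and 12.32 to 12.82 under short days. These ranges overlapped between all 4 conditions, and of the 3 lists only Pecam1 fell below the first quartile of genes, on 3 arrays. Between advance and delay at ZT0, ZT4 and ZT8, 3 of 10 endothelial markers were higher and 0 lower (median 0.06), 2 of 9 tanycyte markers were lower (median -0.08) and 0 of 9 astrocyte markers passed. Of all genes 5.54% were called higher there and 8.76% in either direction. After 4 h of late-night light 0 of 9 tanycyte, 0 of 9 astrocyte and 0 of 10 endothelial markers passed in limma. Of all genes 0.22% passed there, and 1128 had an unadjusted p below 0.05. With so few calls among all genes, these counts do not show that the markers stayed level. The part of these cells in the Dio2 and Slco1c1 results was not tested further.

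Actin probes at the 3′ end exceeded those at the 5′ end by 1.65 ± 0.12 under long days, 1.69 ± 0.09 in advance, 1.85 ± 0.13 in delay and 1.89 ± 0.12 under short days (SD, n = 12 each), and so moved with the conditions. With this difference as a covariate the long-day values were 1.04 for Dio2, 1.38 for Slco1c1, 0.77 for Hr, -0.33 for Thra and 0.31 for Klf9. All 5 still passed, while 5006 genes did so in place of 8503.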

How the data were processed

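RNA of the mouse pars tuberalis was measured on 48 arrays, 2 for each of 24 groups. The values are log2 probe set levels that the authors deposited, summarised by RMA in R 2.8.0 per the submitters' processing notes, so background correction and normalization came before deposit. The number of arrays limits the precision. No 2 arrays were identical.

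Of 45101 probe sets 34958 had 1 gene symbol in the platform annotation, 932 several and 9211 none. The brightest probe set stood for each of 18194 genes, 9012 of which had more than 1. A mean per group was fitted to all genes with limma 3.58.1 in R 4.3.3, with variances moderated on a trend, two-sided tests and Benjamini-Hochberg adjustment over all genes, and the steps were tested on simulated data. No dim gene was removed. F tests cover daily variation and differences in course, where the value given is the range of the group means or of their differences. Single arrays were left out in turn, with the variance pooled over all groups.

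The 6 genes, the pathway and marker lists and the comparisons were chosen with earlier results of these data known. The text names those 6 genes, of the pathway genes that passed up to 4 in each direction with the largest change, and the 3 genes with the highest correlation over group means, clone names passed over. The Eya3 course, Tshr under long days and the single marker levels were picked after their values were seen. The labels do not say what the replicate numbers of different groups share. Correlations of replicate deviations between times had medians of 0.24 in long day, 0.07 in advance, 0.27 in delay and 0.03 in short day. Pairs of times ran from 0.09 to 0.40 in long day and from -0.19 to 0.48 in delay. Whether repeats are shared between times there was not tested. The main fit had no replicate block, and fits with a block are given below among the other settings.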

Additional observations from a re-analysis of the deposited data

Results flagged for a closer look

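These results rest on a difference between 2 groups under the same contrast, tested as an interaction across all genes in limma, with adjusted p below 0.05. The Dio2 course over the day differed between long and short days, with differences of the group means ranging over 1.07 by ZT and 0.97 by clock hour. Its change over 4 h of late-night light exceeded that under short days by 1.07, and that of Slco1c1 by 1.25. The evening step of Klf9 in delay exceeded that under short days by 0.41.

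Among the other pathway genes the long-day and short-day courses by ZT differed for Crym (range 1.00), Thrsp (0.70), Tshr (0.83) and Eya3 (1.15), and by clock hour for Tshr (1.04) and Eya3 (1.49). After 4 h of late-night light the differences from short days were -0.82 for Thrsp, 0.95 for Trhr and 1.62 for Eya3. After 8 h of evening light they were 0.69 for Nrgn and -0.70 for Tshr, and for the evening step in delay 0.45 for Thrsp and 0.43 for Camk4. The late-night response differed from the evening response by -1.21 for Thrsp, -1.17 for Nrgn and 1.24 for Trhr. What set these differences was not tested.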

How the results depend on the processing

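Values were recomputed under 11 other settings and without each array in turn; changes in comparisons over whole days and in the first-day responses are given here, on the log2 scale or as genes past the threshold, and causes were not tested. Calls at single times also changed: Klf9 at ZT12 was lost in 4 settings, Dio2 at clock-matched long-day ZT16 in 5, Hr at ZT12 (adjusted p = 0.224) and Thra at ZT8 (0.0925) with averaged probe sets, Thra at ZT0 with the actin covariate (0.0646) and at ZT16 without the second arrays (0.1475), while Thra at ZT12 was gained in 4. The long-day differences of Dio2, Slco1c1, Hr and Thra and the late-night responses of Dio2 and Slco1c1 kept their direction and call in each of these settings in which they were fitted, and the late-night calls were lost without some single arrays. Dim signal limits Thrb, and 2 arrays a time limit every comparison of single times, whose gene counts moved widely (873 to 4450 at ZT0).

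With a replicate block over all arrays, which pairs arrays by number, Klf9 varied in advance (0.47, adjusted p = 0.0432), the Slco1c1 course by ZT (1.00, 0.0246) and the Thra evening step (0.23, 0.0493) passed, and counts were 2 at advance ZT4, 1 at ZT12, 1838 for the evening step and 44 for late-night minus evening. With a replicate block within each condition, daily variation counted 2838 genes in short day, 736 in advance and 497 in delay, the course difference 1265 by ZT and 138 by clock hour, advance 1 at ZT0, 5 at ZT4 and 2 at ZT12, evening light 11 after 4 h and 366 after 8 h, the evening step 2389 and late-night minus evening 45. That block gave passes to Hr in advance (0.44, 0.0451), the Slco1c1 course by ZT (1.00, 0.0322) and the Thra step (0.23, 0.0358). Neither block took a call from the 6 genes, and beside the calls given here they changed only Thra at single times.

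Without a variance trend the Dio2 course by clock hour (0.97), the Klf9 step (0.41) and Klf9 in advance minus delay (0.24) no longer passed, and evening light had 1 gene. Among genes above the median level the Slco1c1 course by ZT passed (1.00), the Dio2 course by clock hour did not (0.97), and 56 genes passed by clock hour. Centring arrays gave 0.95 for the Dio2 course by clock hour and 0.23 for Klf9 in advance minus delay, neither passing, and 0.013 for Slco1c1 after evening light, reversed. Repeating quantile normalization reversed Thrb under long days (0.013) and Hr in late-night minus evening (0.032). It gave passes to Klf9 in advance (0.54), the Slco1c1 course by ZT (1.09) and Dio2 ahead of the light (0.21), took them from the Klf9 step (0.24) and Klf9 in advance minus delay (0.17), and counted 2 genes for evening light and 102 for the step.

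Averaging probe sets took the calls of Klf9 under long days (0.024), Dio2 in delay (0.59) and the Klf9 step (0.16), gave calls to Thra in short day (0.47), Klf9 in advance (0.30) and Dio2 in late-night minus evening (1.57), and reversed Klf9 after late-night light (0.085), Dio2 after evening light (-0.19) and Hr in late-night minus evening (0.0011). It counted 0 genes at advance ZT4, 3 for evening light and 505 for the step. The actin covariate counted 5006 genes for long minus short day, 75 for 8 h of evening light, 86 for the step, 18 for late-night minus evening and 935 for advance minus delay. It gave a pass to Klf9 in advance (0.49), took those of the Dio2 course by clock hour (0.96) and the Klf9 step (0.32), and reversed Slco1c1 after 4 h (0.052) and 8 h (0.0015) of evening light and Hr in late-night minus evening (0.042).

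Fits on only the conditions compared counted 89 genes in short day, 83 in long day, 1325 in advance and 92 in delay for daily variation, 271 and 31 for the courses by ZT and clock hour, 1 and 62 for 4 h and 8 h of evening light and 75 for the step. There Slco1c1 in short day (0.85), Dio2 in delay (0.72), the Dio2 course by clock hour (0.97) and the Klf9 step (0.41) were lost, and Klf9 in advance (0.47) and the Slco1c1 course by ZT (1.00) passed. Without the second long-day arrays of ZT16 and ZT20 Klf9 varied in long day (0.52), advance (0.47) and delay (0.54) and in course by ZT (0.62), the Dio2 course by clock hour was lost (1.01), Thrb under long days was 0.0062 and evening light had 19 genes. Without all 4, chosen after seeing the data, Klf9 varied in long day (0.44) and in course by ZT (0.53), Dio2 by clock hour was lost (0.77) and Thrb was 0.03.

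Leaving out single arrays gave ranges of -0.045 to 0.013 for Thrb under long days. For daily variation the ranges were 0.74 to 0.95 for Slco1c1 and 0.24 to 0.44 for Thra in short day, 0.41 to 0.53 for Klf9 in long day, 0.45 to 0.56 for Klf9 in advance, and 0.56 to 0.89 for Dio2, 0.50 to 1.00 for Slco1c1 and 0.47 to 0.74 for Klf9 in delay. They were 0.92 to 1.20 for the Slco1c1, 0.48 to 0.69 for the Klf9 course by ZT and 0.77 to 1.17 for the Dio2 course by clock hour. Late-night light gave 0.99 to 1.15 for Dio2 and 1.11 to 1.39 for Slco1c1, and Slco1c1 had -0.54 to 0.01 at advance ZT0 and 0.91 to 1.19 at ZT8. Evening light gave -0.015 to 0.32 for Dio2, and for Slco1c1 -0.28 to 0.28 after 4 h and -0.46 to 0.10 after 8 h. The step gave 0.18 to 0.28 for Thra and 0.35 to 0.46 for Klf9, late-night minus evening -0.21 to 0.12 for Hr, and advance minus delay 0.20 to 0.27 for Klf9. Counts ranged from 901 to 2765 in short day and 172 to 334 in delay for daily variation, 499 to 1456 and 60 to 349 for the courses by ZT and clock hour, 18 to 334 for late-night light, 0 to 427, 0 to 428, 0 to 280 and 0 to 507 at advance ZT0, ZT4, ZT8 and ZT12, 0 to 12 and 44 to 757 for 4 h and 8 h of evening light, 139 to 2632 for the step, 10 to 111 for late-night minus evening and 826 to 1843 for advance minus delay.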
